A study of Sus scrofa with 12 samples.

Results

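The genes described here encode metallothioneins and antioxidant enzymes of pig skeletal muscle: MT-2B, MT1A, GPX1, GPX3, GPX4, SOD1, SOD2, CAT and PRDX6. They were chosen by symbol, as the probe sets whose single gene symbol in the platform annotation is one of these. All 9 genes were found among the 6765 genes with a symbol. They had 10 of the 23999 probe sets tested, since GPX4 had more than one. Transcripts were measured in the semimembranosus, a hind leg muscle, of 3 female pigs of a commercial hybrid weighing about 160 kg, after stunning with CO2. Each pig gave a portion of 3 to 5 g of the same muscle at 20 min, 2 h, 6 h and 24 h after death, during normal cold storage of the carcass. There were 12 portions and 12 one-colour Affymetrix arrays, so that each time had 3 arrays, one per pig. Later times were compared with earlier portions of the same pigs, and all p-values rest on these 3 animals. They use a residual spread pooled over all times and drawn partly from the other probe sets. A p-value, or an interval from the same fit, therefore does not measure how far the given change varied between the pigs. No living or unstunned muscle was among the groups, and the age of the pigs is not given in the sources used here.

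Metallothioneins are small proteins rich in cysteine that bind zinc and copper. Their genes are switched on by metals, glucocorticoids and oxidative stress, and the response to metals runs through the metal-sensing factor MTF1. Superoxide dismutases turn superoxide into hydrogen peroxide, which catalase, the glutathione peroxidases and the peroxiredoxins then remove. Several glutathione peroxidases hold selenium at the active site, in the amino acid selenocysteine. Muscle contains mitochondria and myoglobin, both sources of reactive oxygen, and after death its oxygen supply ends while the tissue acidifies and cools.

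On the log2 scale of the deposited values, the array medians lay between 5.89 and 5.94. Any pair of arrays correlated over probe sets at 0.986 to 0.997. The labelled tissue was checked on fibre markers, of which 7 of 12 were on the array with a symbol (CKM, MYH2, MYH7, TNNT3, TNNC2, MYLPF and TTN). Their levels lay between 14.04 and 14.54 on all 12 arrays. The 20 min arrays entered all 3 comparisons with the first time, so those comparisons are not independent of each other. In each portion of whole muscle, fewer cells of a type and less RNA per cell cannot be told apart.

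MT-2B, a metallothionein gene, had a lower mean at 6 h and at 24 h than at 20 min. Its log2 level in pigs 1, 2 and 3 was 7.59, 7.58 and 7.96 at 20 min, 7.08, 7.60 and 7.94 at 2 h, 6.65, 7.27 and 7.78 at 6 h, and 6.82, 7.19 and 7.68 at 24 h. Pig 3 was the highest of the 3 at 4 of 4 times, and its 24 h value lay above the 20 min values of pigs 1 and 2, so the groups overlap. Within each pig, the 6 h and 24 h arrays were below the 20 min array, in 3 of 3 pigs.

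MT-2B started from a mean log2 level of 7.71 ± 0.22 (SD, n = 3), and its mean was 7.54 ± 0.44 after 2 h, 7.23 ± 0.57 after 6 h and 7.23 ± 0.43 after 24 h. At 24 h the log2 change was -0.48 (SE 0.13, 95% interval -0.75 to -0.21), which is 1.39-fold lower. It did not pass the test over all probe sets (limma adjusted p = 0.213, unadjusted p = 0.00252), in a comparison where 0.00417% of all probe sets passed. At 6 h the change was again -0.48 (SE 0.13, limma adjusted p = 0.488), where 0 of 23999 probe sets passed and 8.83% had an unadjusted p under 0.05. At 2 h it was -0.17 (limma adjusted p = 0.720), with -0.52 in pig 1, 0.02 in pig 2 and -0.02 in pig 3. Pig 1 therefore carried nearly all of the 2 h difference, and the other two pigs were near their 20 min level at 2 h. The changes at 24 h were -0.77, -0.39 and -0.28 in pigs 1, 2 and 3. Without pig 1 the 6 h change of MT-2B was -0.24 and the 24 h change was -0.33.

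MT1A, the other metallothionein among the 9 genes, had its highest mean at 2 h. In the Sscrofa11.1 RefSeq gene table MT-2B and MT1A lie on the same chromosome, with 4 other genes between them. MT3, a metallothionein gene outside the rule, also had a probe set of its own. Its changes from 20 min were 0.17 at 2 h, 0.03 at 6 h and 0.22 at 24 h (limma adjusted p = 0.644, 0.930 and 0.335). The log2 level of MT1A in pigs 1, 2 and 3 was 4.67, 4.48 and 4.56 at 20 min, 4.88, 4.91 and 4.88 at 2 h, 4.83, 4.41 and 4.58 at 6 h, and 4.76, 4.50 and 4.58 at 24 h. The 3 arrays at 2 h were above the other 9, a pattern found at 30 of 23999 probe sets (0.125%). This pattern was counted after it was seen in MT1A, so its share is no test. All 12 values lay below the array medians of 5.89 to 5.94, and the reliability of so low a signal is unknown.

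At 2 h the log2 change of MT1A from 20 min was 0.32 (SE 0.0889, 95% interval 0.12 to 0.51), higher in 3 of 3 pigs, as were 13.8% of all probe sets. It did not pass over all probe sets (limma adjusted p = 0.579, unadjusted p = 0.00397), and neither did any other of the 23999 at that time. MT1A was the 1 member probe set whose 2 h and 20 min arrays did not overlap, against 4.20% of all probe sets that were higher without overlap. This follows from its 2 h arrays lying above the other 9, so it is no further result. From 2 h to 6 h its change was -0.29 (SE 0.0889, limma adjusted p = 1.000, unadjusted p = 0.00761), lower in 3 of 3 pigs, and at 24 h its mean was 0.04 above that at 20 min (limma adjusted p = 0.875). In pigs 1, 2 and 3 the MT1A change at 2 h was 0.21, 0.43 and 0.32. The gap between the 3′ and 5′ probe sets of the EF1A control, which grows as RNA is broken, differed from 20 min by 0.08, 0.49 and 0.26. That of actin differed by -0.22, 0.31 and -0.19, and that of GAPDH by 0.0013, 0.036 and -0.067. The part of RNA quality in the MT1A value was not tested. All array values of MT1A are given because its 2 h pattern was seen first. The suffix of this probe set's identifier marks probes shared by similar transcripts, so near-identical metallothionein copies may share its signal. One more probe set, annotated to MT1A and MT3 at once, was outside the rule. It had a higher signal than the MT1A set, between 8.57 and 9.19 on all 12 arrays. Its 2 h change was -0.08 (SE 0.0944, limma adjusted p = 0.842), with -0.04, -0.18 and -0.01 in pigs 1, 2 and 3.

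**Figure D1:**
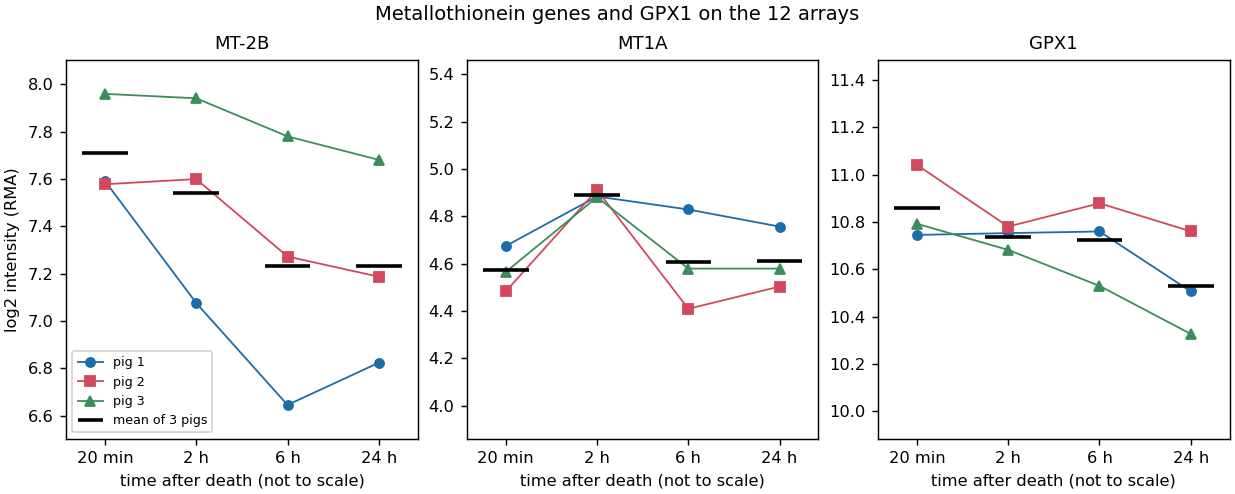
Log2 intensity of MT-2B, MT1A and GPX1 (vertical axis, the same span in each panel) at 20 min, 2 h, 6 h and 24 h after death, with 1 line per pig and black bars for the mean of 3 pigs. MT-2B ends lower in each pig, with pigs 1 and 2 close together at 20 min and apart from 2 h on, MT1A has its highest mean, 4.89, at 2 h, and GPX1 has its lowest mean, 10.53, at 24 h.

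GPX1, the cytosolic glutathione peroxidase and a selenoprotein, had a lower mean at 24 h than at 20 min. Its log2 level in pigs 1, 2 and 3 was 10.75, 11.04 and 10.79 at 20 min, 10.75, 10.78 and 10.68 at 2 h, 10.76, 10.88 and 10.53 at 6 h, and 10.51, 10.76 and 10.33 at 24 h. Pig 2 was the highest at 4 of 4 times, and its 24 h value lay above the 20 min value of pig 1, so these groups overlap as well. Pig 1 stayed level up to 6 h, whereas pig 3 was lower at each later time than at the one before.

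GPX1 started from a mean log2 level of 10.86 ± 0.16 (SD, n = 3), and its mean was 10.74 ± 0.05 after 2 h, 10.72 ± 0.18 after 6 h and 10.53 ± 0.22 after 24 h. The log2 change at 24 h was -0.33 (SE 0.0886, 95% interval -0.52 to -0.13), which is 1.26-fold lower, with -0.24, -0.28 and -0.47 in pigs 1, 2 and 3. It did not pass over all probe sets (limma adjusted p = 0.220, unadjusted p = 0.00315). The changes at 2 h and 6 h were -0.12 and -0.14 (limma adjusted p = 0.720 and 0.655), each lower in 2 of 3 pigs. Between 6 h and 24 h the change was -0.19, lower in 3 of 3 pigs (limma adjusted p = 0.622). In pig 1 the difference lay after 6 h (0.01 up to 6 h and -0.25 after it), whereas pigs 2 and 3 had parts of it on both sides (-0.16 and -0.12 in pig 2, -0.26 and -0.20 in pig 3). For MT-2B the mean at 24 h was at the 6 h mean, with a change of -0.0021 between these times.

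Markers of other cell types, and the 3′ to 5′ gap of control transcripts were set beside MT-2B and GPX1. Of 14 macrophage and leukocyte markers, 10 had a probe set with a single symbol. A lower mean at 24 h than at 20 min was seen for 7 of these 10 and for 48.0% of all probe sets. Of the 10, 0 passed over all probe sets. Their mean log2 level lay between 6.33 and 6.96 at 20 min, between 6.39 and 6.80 at 2 h, between 6.48 and 6.79 at 6 h, and between 5.75 and 6.26 at 24 h. The 24 h change of this list was -0.33, -0.17 and -1.21 in pigs 1, 2 and 3. The macrophage genes C1QC, CD163, VSIG4 and C1QA had the lowest changes of the 10, -1.63, -1.29, -1.19 and -1.01. AIF1, TYROBP and FCER1G were at -0.48, -0.32 and -0.25, whereas CD14, PTPRC and CD74 were higher, at 0.22, 0.15 and 0.10. The defining leukocyte marker PTPRC lay between 3.74 and 4.21 on all arrays. Of 10 blood markers 3 had a probe set with a single symbol, with HBB at -0.21, ALAS2 at 0.21 and AHSP at 0.14. The fibroblast list had mean differences of 0.11, -0.03 and -0.53, the endothelial list by -0.02, 0.35 and -0.16, and the adipocyte list by -0.04, 0.07 and -0.27, with 0 genes past the test in each. For the EF1A control, the gap between its 3′ and 5′ probe sets at 24 h was 0.38, -0.01 and 0.47 above that at 20 min in these pigs. For GAPDH it was 0.06, 0.0098 and 0.04, and for actin 0.09, -0.23 and -0.04. Pig 1 had the largest MT-2B difference, and pig 3 had the largest GPX1, macrophage and EF1A differences. The part of other cells and of RNA quality in the MT-2B and GPX1 values was not tested.

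**Figure D2:**
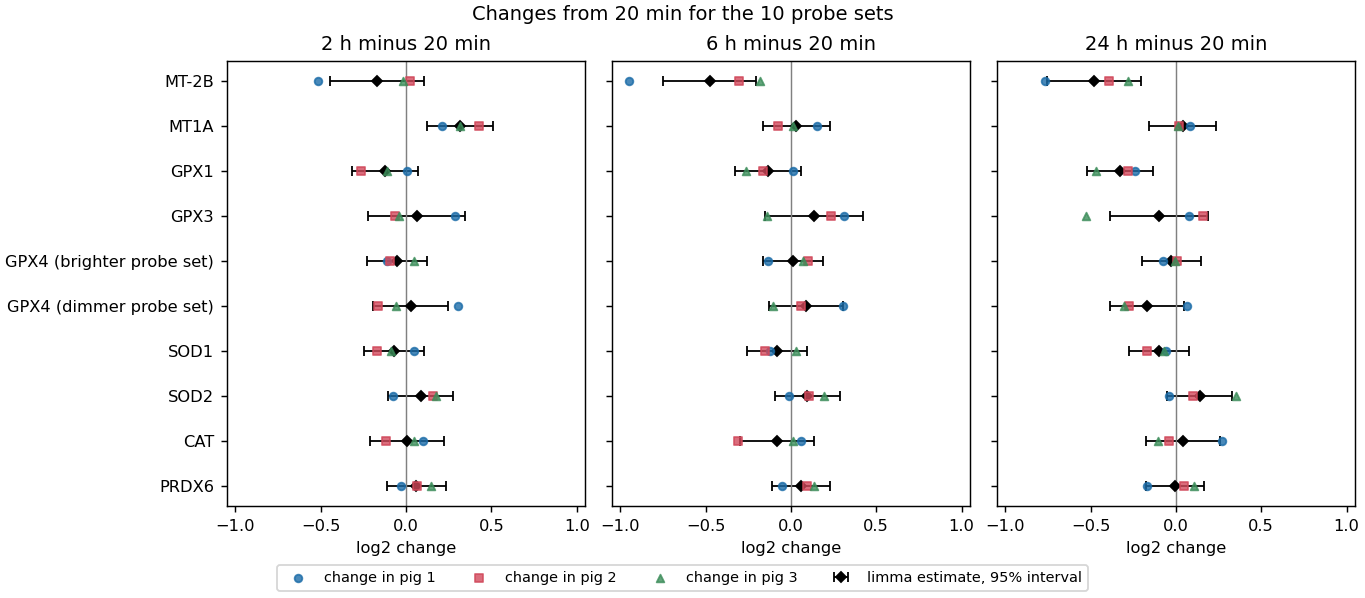
Log2 change from 20 min to 2 h, 6 h and 24 h for the 10 probe sets, with the change in each pig (coloured points) and the limma estimate with its 95% interval (black). The intervals of MT-2B at 6 h and 24 h, MT1A at 2 h and GPX1 at 24 h lie to 1 side of 0, and none of these passed after adjustment over 23999 probe sets.

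GPX3, the secreted glutathione peroxidase found in plasma, had the widest spread between pigs in its 24 h change, among the 10 probe sets. From 9.10 ± 0.22 (SD, n = 3) at 20 min its mean log2 level went to 9.17 ± 0.03 after 2 h, 9.24 ± 0.19 after 6 h and 9.01 ± 0.34 after 24 h. The 24 h changes were 0.07 in pig 1, 0.16 in pig 2 and -0.53 in pig 3, with an estimate of -0.10 (SE 0.13, limma adjusted p = 0.772). Without pig 3 the estimate was 0.12. In pig 3 the macrophage, fibroblast, endothelial and adipocyte lists also had their lowest 24 h differences, and their part in the GPX3 value was not tested. From 6 h to 24 h GPX3 was lower in 3 of 3 pigs, by -0.24, -0.08 and -0.39 (limma adjusted p = 0.699).

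GPX4, the glutathione peroxidase that reduces lipid peroxides in membranes, gave 2 probe sets that differed in their spread. The one with the higher signal lay between 11.06 and 11.25 on all 12 arrays, a range of 0.196, which was the narrowest of the 10. Its log2 change at 24 h was -0.03 (SE 0.0800, 95% interval -0.20 to 0.15, limma adjusted p = 0.908). The other probe set lay between 3.60 and 4.13, and its change at 24 h was -0.17 (SE 0.0995, limma adjusted p = 0.479). From 6 h to 24 h this second set was lower in 3 of 3 pigs without overlap of the groups, by -0.26 (limma adjusted p = 0.590, unadjusted p = 0.0251), against -0.04 for the first (limma adjusted p = 0.948). It was the 1 member without overlap in this comparison, against 3.99% of all probe sets that were lower without overlap. Signal over background is not given for these probe sets, so it is not known how far the weaker one measures its transcript.

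SOD1 and SOD2 encode the copper-zinc superoxide dismutase of the cytosol and the manganese enzyme of mitochondria. SOD1 had a mean log2 level of 11.57 ± 0.07 (SD, n = 3) at the first time, 11.50 ± 0.06 after 2 h, 11.49 ± 0.14 after 6 h and 11.47 ± 0.06 after 24 h. It was lower in 3 of 3 pigs at 24 h, with changes of -0.06, -0.17 and -0.07, and the estimate was -0.10 (SE 0.0812, limma adjusted p = 0.613). SOD2 had means of 12.29 ± 0.08, 12.37 ± 0.11, 12.38 ± 0.11 and 12.43 ± 0.21 in the same order. The SOD2 estimate at 24 h was 0.14 (SE 0.0878, limma adjusted p = 0.508), with -0.04, 0.10 and 0.35 in pigs 1, 2 and 3. Pig 3, whose SOD2 level was 12.32 in the first portion, then 12.50, 12.51 and 12.67, gave most of this difference, and without pig 3 the estimate was 0.03.

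CAT, which encodes catalase, varied more between pigs than over time in the span of its means. So did MT-2B, GPX3, the GPX4 set with the higher signal, SOD1, SOD2 and PRDX6. The means of CAT were 11.62 ± 0.29 (SD, n = 3), 11.63 ± 0.22, 11.54 ± 0.23 and 11.66 ± 0.10 from the first time to the last. Pig 1 was the lowest at 4 of 4 times, between 11.29 and 11.56, and pig 3 lay between 11.68 and 11.83. The estimate at 24 h was 0.04 (SE 0.0991, 95% interval -0.18 to 0.26, limma adjusted p = 0.886). PRDX6, a peroxiredoxin that reduces phospholipid hydroperoxides, had means of 10.76 ± 0.10, 10.82 ± 0.08, 10.82 ± 0.06 and 10.76 ± 0.08. Its estimate at 24 h was -0.0055 (SE 0.0790, 95% interval -0.18 to 0.17, limma adjusted p = 0.982). From 6 h to 24 h PRDX6 was lower in 3 of 3 pigs by -0.06 (limma adjusted p = 0.884), and from 2 h to 6 h CAT was by -0.09 (limma adjusted p = 1.000).

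**Figure D3:**
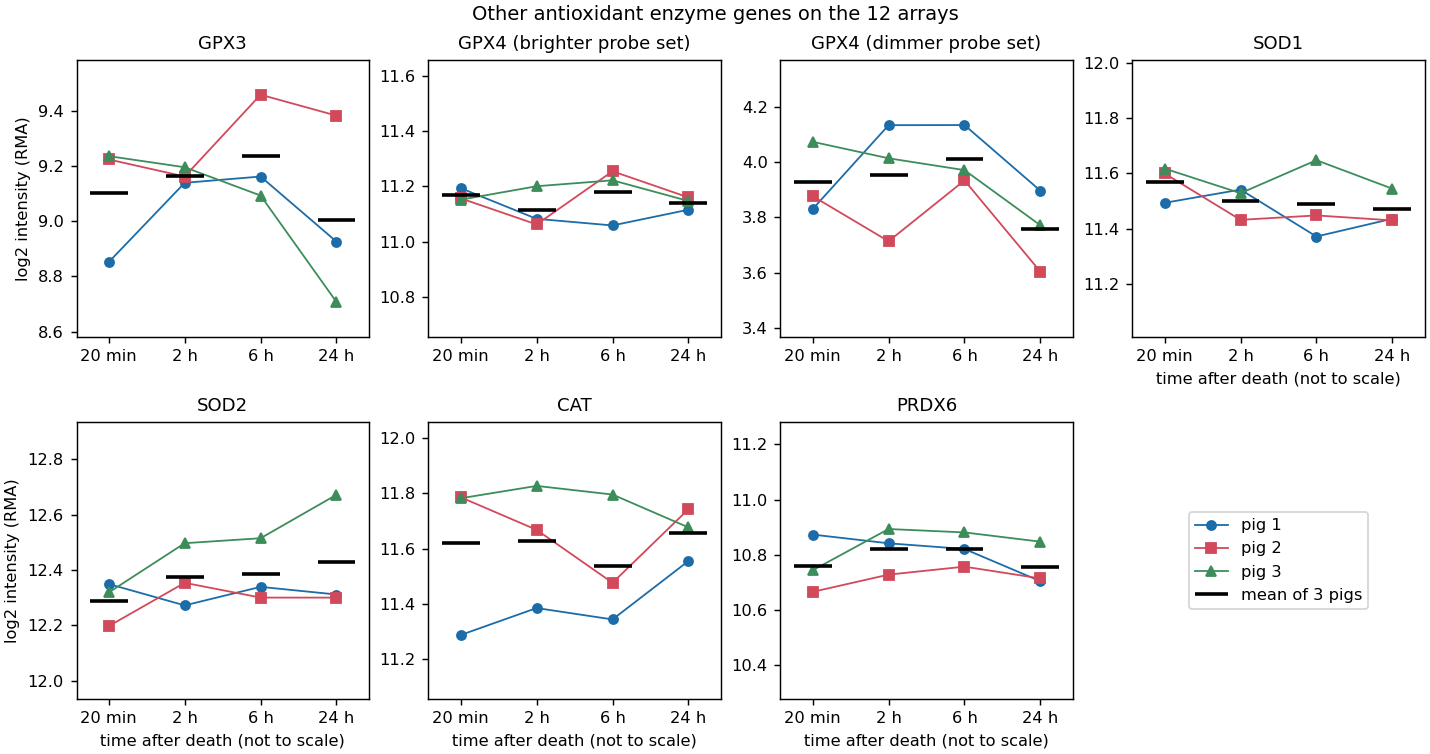
Log2 intensity of GPX3, both GPX4 probe sets, SOD1, SOD2, CAT and PRDX6 (vertical axes, the same span of 1 log2 unit in each panel) at the 4 times, with 1 line per pig and black bars for the mean of 3 pigs. The lines of the pigs cross for most genes, CAT in pig 1 lies below the other pigs at each time, and SOD2 in pig 3 is highest at 24 h.

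Across the 10 probe sets, 0 passed limma's test at 2 h, 6 h or 24 h after adjustment over all probe sets, and 0 passed the F test over the 4 times (smallest adjusted p = 0.535, for MT-2B). At 24 h 1 of all 23999 probe sets passed, and it was not a member. At an unadjusted p under 0.05 there were 2 of the 10 at 24 h (MT-2B and GPX1), against 13.1% of all probe sets, 1 at 6 h (MT-2B, which was also the 1 member lower in all 3 pigs then, against 16.6% of all), against 8.83%, and 1 at 2 h (MT1A), against 7.95%. A lower mean at 24 h was seen for 7 of 10 (48.0% of all probe sets), and 3 were lower in all 3 pigs, MT-2B, GPX1 and SOD1 (16.7% of all). MT1A was higher in all 3 pigs at 24 h (17.8% of all), by 0.08, 0.02 and 0.01. No member's 24 h arrays lay wholly above or below its 20 min arrays, which 6.99% and 4.72% of all probe sets did. Over the 4 times, 3 of the 10 (MT-2B, MT1A and GPX1) had an unadjusted F test p under 0.05 in limma, against 8.22% of all. The median change at 24 h was -0.06 over the 10 and 0.0082 over all probe sets. With 10 probe sets, these shares move in large steps, and they are no result about the list as a whole.

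Between neighbouring later times 0 members passed after adjustment, as did 0 of all probe sets. From 2 h to 6 h, 2 of the 10 (MT-2B and MT1A) had an unadjusted limma p under 0.05, against 2.26% of all probe sets, and 3 were lower in all 3 pigs (MT-2B, MT1A and CAT), against 9.64%. MT1A was the 1 member with no overlap there, against 2.87% of all that were lower without overlap. This too follows from its 2 h arrays lying above the other 9. The MT-2B change in this interval was -0.31 (SE 0.13, limma adjusted p = 1.000), with -0.43, -0.33 and -0.16 in pigs 1, 2 and 3. From 6 h to 24 h, 1 of the 10 (the weaker GPX4 set) had an unadjusted limma p under 0.05, against 8.08% of all, and 4 were lower in all 3 pigs (GPX1, GPX3, the weaker GPX4 set and PRDX6), against 15.7%.

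The intervals give a range for the mean change under the pooled spread of the model, not for the spread between the pigs. At 24 h the 95% interval lay within 1.5-fold in either direction for 9 of the 10 probe sets, and for 93.3% of all. MT-2B was the exception, with an interval that reached 1.69-fold lower. Among the remaining 9, the interval that reached furthest from 0 was that of GPX1, to 1.44-fold lower. GPX3 is among these 9, although its 24 h changes had an SD of 0.37 over the pigs, with -0.53 in pig 3. For PRDX6 and the GPX4 set with the higher signal the interval stayed within 1.15-fold. Mean levels of the pigs over the 4 times spanned 0.81 log2 units for MT-2B and 0.38 for CAT, while the means of the times spanned 0.48 and 0.12. For MT1A and GPX1 the times spanned more than the pigs, 0.32 against 0.21 and 0.33 against 0.28. The same held for the GPX4 set with the lower signal, with 0.26 against 0.22.

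A wider set of redox and metal-handling genes was taken from lists of pathway members, with the brightest probe set of each gene. Of 102 listed symbols other than the 9 genes, some of them older names of the same gene, 58 had a probe set with that single symbol. The others may be on the array without it. At 2 h, 6 h and 24 h 0 of the 58 passed limma's test over all probe sets in either direction (smallest adjusted p = 0.193, at 24 h). At an unadjusted p under 0.05, 5 were higher and 2 lower at 24 h, 4 higher and 1 lower at 6 h, and 4 higher and 1 lower at 2 h. Over all probe sets, the shares in either direction were 13.1%, 8.83% and 7.95% at these times, and the counts among the 58 are near them. At 24 h 30 had a higher and 28 a lower mean (48.0% of all probe sets had a lower mean). The median change was 0.02, against 0.0082 over all probe sets.

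The largest differences of these 58 at 24 h were those of MGST1, MSRB2 and GLRX5. MGST1, a membrane-bound glutathione transferase that also has peroxidase activity, had a mean log2 level of 6.82 at 20 min and 6.04 at 24 h, a change of -0.78 (SE 0.15, limma adjusted p = 0.193), lower in 3 of 3 pigs. Its change was -0.47 at 2 h and -0.63 at 6 h. MSRB2, which repairs oxidised methionine in mitochondria, had a change of 0.32 (SE 0.10, limma adjusted p = 0.260), higher in 3 of 3 pigs. GLRX5, a mitochondrial glutaredoxin of iron-sulfur cluster assembly, had one of 0.29 (SE 0.14, limma adjusted p = 0.402), higher in 2 of 3 pigs.

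By group, the 20 measured genes of the glutathione system had 10 higher and 10 lower means at 24 h and a median change of 0.0096. Among all probe sets 48.0% had a lower mean at that time. The 15 peroxiredoxin, thioredoxin and methionine sulfoxide reductase genes had 8 higher and 7 lower, with a median of 0.04. Of the 9 genes of the NRF2 pathway, which switches on antioxidant genes, 4 were higher and 5 lower, with a median of -0.02. HMOX1, the inducible heme oxygenase, was at -0.23 (limma adjusted p = 0.396), a value named here after it was seen. The 7 selenoprotein genes and their synthesis factors had 4 higher and 3 lower means, and the 5 metallothionein and metal-handling genes 3 higher and 2 lower. SOD3, the extracellular superoxide dismutase, had a change of 0.23 (limma adjusted p = 0.396). CCS, the copper chaperone of SOD1, had one of -0.04 (limma adjusted p = 0.855).

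**Figure D4:**
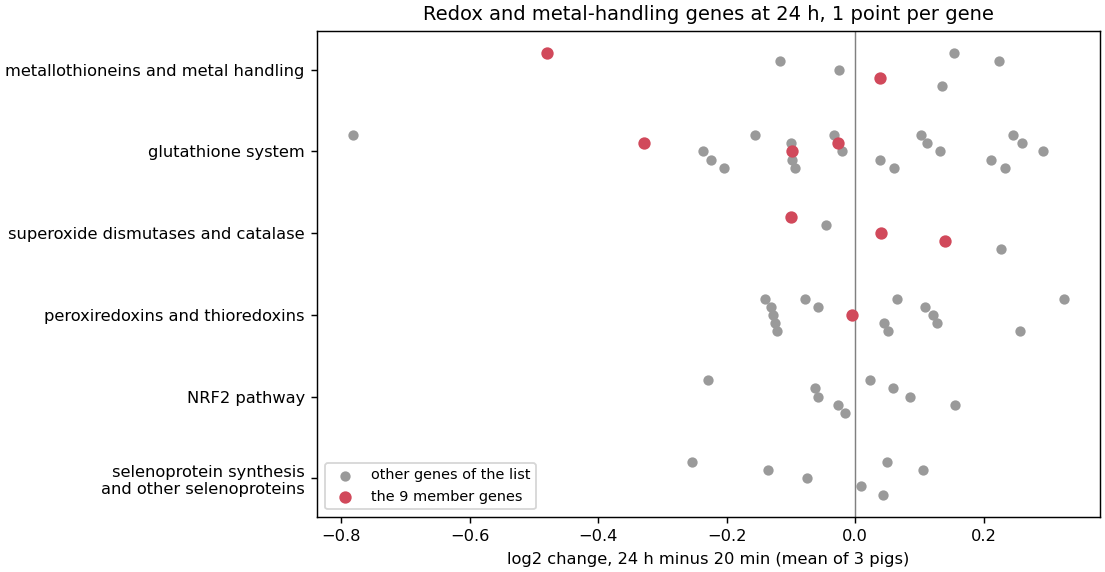
Log2 change from 20 min to 24 h (horizontal axis, mean of 3 pigs) for redox and metal-handling genes by list, 1 point per gene, with the 9 member genes in red and the other genes in grey. MGST1 at -0.78 and MT-2B at -0.48 are the 2 lowest points, and most of the others lie between -0.25 and 0.25.

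The genes with the pattern most like each of the 2 leading members were found by correlation over the 12 arrays after the mean of each pig was subtracted, among 6298 probe sets with 1 symbol and a mean log2 level of at least 6. For MT-2B these were CDK2AP1 (r = 0.89), PSMB6 (0.87), SRP72 (0.87), PRPF4 (0.86) and LIN52 (0.85), with log2 changes at 24 h between -0.25 and -0.08. For GPX1 they were SLC35F5 (r = 0.95), CAMK2D (0.95), STAT3 (0.94), CTSV (0.94) and a gene with a locus identifier only (0.94), with changes between -0.44 and -0.20. They were picked as the highest of 6298 values over arrays of 3 pigs, so the correlations describe these arrays only. By the same measure MT-2B and GPX1 correlated with r = 0.41, MT-2B and MT1A with r = 0.11, and GPX1 and SOD2 with r = -0.80, the lowest of the pairs of members.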

How the data were processed

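Values per probe set were deposited on the log2 scale. The authors made them with RMA from the affy package, according to the submitters' processing notes. No version of either is given in the sources used here. This method quantile-normalises the arrays, so a shift common to all transcripts would not show. The small number of arrays sets the precision. The 124 control probe sets among 24123 did not enter the tests, which used the remaining 23999 without a filter. Symbols came from the platform annotation of 2016 and matched the Sscrofa11.1 RefSeq table by gene ID for 9 of 9 members. From that table only the order of genes was used, and no coordinates or sequences are printed.

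Groups and pig numbers came from the sample titles. One model (limma 3.58.1, R 4.3.3, statmod 1.5.0) took all 12 arrays, with terms for time and, as a fixed block, for pig, and had 6 residual and 5.67 prior degrees of freedom. Two-sided p-values were adjusted over all probe sets by the Benjamini-Hochberg method, with 0.05 as the threshold. Arrays of the same pig deviated together from the mean of their time (r from 0.409 to 0.656), and the pig number in the titles marks one animal. The model was also run on simulated data with planted changes and independent noise. The outcome is not given here, and the results do not rest on it. Members, gene lists and tests were chosen with earlier results of these data known. All members are described. Of the wider lists the 3 genes with the largest change at 24 h are named, and for MT-2B and GPX1 the 5 most correlated genes. MT3, HMOX1, SOD3 and CCS of the wider lists are named besides, outside this choice. Changes between later times are given where all 3 pigs moved the same way, and for MT-2B and the stronger GPX4 set from 6 h to 24 h for comparison. Alternatives were no block or a random block, a filter on dim probe sets, centring on the 2000 brightest probe sets, cyclic loess, another prior, array weights, fewer arrays, 1 probe set per gene, each pig left out and a threshold of 0.10.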

Additional observations from a re-analysis of the deposited data

How the results depend on the processing

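Over the alternatives, 0 of the 37 member changes passed the threshold. Of 469 alternative values 450 kept their direction and 19 did not. Only cyclic loess, centring, array weights and leaving out a pig could move a log2 change. The other alternatives left each change as it was, so many of the 450 were fixed in advance and are no measure of stability. At 24 h the log2 change of MT-2B ran from -0.579 to -0.335 (limma adjusted p from 0.150 to 0.808) and that of GPX1 from -0.373 to -0.260 (0.122 to 0.805), both lower in each alternative run. The 2 h change of MT1A ran from 0.257 to 0.372 (0.384 to 0.999). MT1A and the weaker GPX4 set were left out with the dimmest 40% of probe sets.

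The values that turned were small. With cyclic loess the 24 h change was -0.0197 for MT1A and 0.0229 for PRDX6. With centring on the brightest probe sets it was 0.0160 for the stronger GPX4 set and 0.0369 for PRDX6. With array weights it was 0.00803 for PRDX6 at 24 h and -0.0524 for CAT at 2 h. With each pig left out, the 2 h change ran from -0.267 to 0.00159 for MT-2B, from -0.0510 to 0.123 for GPX3, from -0.111 to 0.122 for the weaker GPX4 set and from -0.0366 to 0.0710 for CAT. At 6 h it ran from -0.0296 to 0.0842 for MT1A, from -0.0324 to 0.0840 for the stronger GPX4 set, from -0.0227 to 0.180 for the weaker one and from -0.148 to 0.0348 for CAT. At 24 h it ran from -0.227 to 0.116 for GPX3, from -0.0743 to 0.112 for CAT and from -0.0601 to 0.0760 for PRDX6. The cause was not tested.

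Of all probe sets, 1 passed at 24 h and 1 over the 4 times. Each count was 0 without the replicate block and with pig as a random replicate block. The 24 h count was also 0 with only the arrays of the times compared, and between 0 and 2 with each pig left out (0 without pig 2 and without pig 3). The count over the 4 times was 0 with cyclic loess and without the dimmest 40%, and between 0 and 1 with each pig left out. At 6 h 1 passed with array weights. Between 6 h and 24 h, where the model of all arrays gave 0, 4 passed with only the arrays of those times and between 0 and 1 with each pig left out (1 without pig 3). At 2 h, 6 h and 24 h against 20 min none of these were members. No signal over background is given, so low signals such as those of MT1A and the weaker GPX4 set have unknown reliability.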
